A study of Mus musculus with 2 samples.

Results

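The genes that write, keep and remove DNA methylation were followed through a population of cells on the way to induced pluripotency. They are 10 genes taken by name from the deposited table: *Dnmt1*, *Uhrf1*, *Dnmt3a*, *Dnmt3b*, *Dnmt3l*, *Tet1*, *Tet2*, *Tet3*, *Tdg* and *Gadd45a*. All 10 were among the 17408 genes of the table, and all 10 passed the filter on low values, a mean of 0.02 UMIs per 10000 over all cells, that left 11104 genes to test. *Dnmt3l* passed it only through the cells of 1 state, as its mean over the remaining cells was 0.0115, so its test is given no weight below. The cells were STEMCCA mouse embryonic fibroblasts (MEFs), in which doxycycline switches on a single transgene encoding Klf4, Myc, Pou5f1 and Sox2. They were grown in mouse embryonic stem cell (ESC) medium with doxycycline and 50 μg/ml ascorbic acid and were collected, unsorted, on day 16. The 2 droplet 3' RNA-seq libraries, called library 1 and library 2 here, belong to 1 group. The study describes its unsorted day 16 populations as coming from independent STEMCCA mouse systems, and the labels tie neither library to a system. A difference in genetic background between the libraries therefore cannot be told apart from any other difference between them. There is no untreated group and no second time point, so the comparisons are between cell states within the libraries. Ascorbic acid, a compound known to promote the activity of TET enzymes, was present in both libraries, and its part in any level was not tested.

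DNA methylation is set on cytosines of CpG dinucleotides by DNMT3A and DNMT3B, with DNMT3L as a partner that has no catalytic activity of its own, and is copied to the new strand after replication by DNMT1, which UHRF1 brings to hemimethylated sites. TET enzymes oxidise 5-methylcytosine, and the glycosylase TDG cuts out some of the oxidised bases so that base excision repair can put back an unmodified cytosine. Reprogramming of fibroblasts to pluripotency is known to involve demethylation of pluripotency genes, and mouse ESCs are known for expressing *Dnmt3b*, *Dnmt3l*, *Tet1* and *Tet2*.

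To place the 10 genes in cell states, the 3109 cells of library 1 and the 3914 cells of library 2 were clustered together, with these 10 genes and 46 other genes of DNA methylation kept out of the genes used for clustering. Of 15 states, 11 had at least 30 cells in each library and entered the comparisons, as 22 profiles of 1 state in 1 library. State 7 was pluripotent-like, with 12 of 12 pluripotency markers raised (by a factor of at least 2 over the remaining cells), and held 146 cells of library 1 and 390 of library 2. Its cells also had 12 of 19 mitotic, 7 of 20 S-phase, 3 of 11 epithelial, 2 of 6 neural, 2 of 5 trophoblast and 1 of 5 keratinocyte markers raised, and none of the fibroblast, smooth muscle, endothelial or macrophage lists. State 3 was mitotic-like, with 19 of 19 mitotic markers raised. States 6 and 10 had 15 and 17 of 20 S-phase markers raised but also 13 and 15 of 19 mitotic markers. Because mitotic genes were among their leading genes they are given by number, and they stand for replicating cells that are not pluripotent. State 5 was smooth muscle-like, with 6 of 6 markers raised, but 10 of 12 fibroblast markers were raised in it too. State 9 was fibroblast-like with 10 of 12. The other 5 states (0, 1, 2, 4 and 8) took no name, and together with states 5 and 9 they are the 7 non-cycling states used as background below. The 4 states outside the comparisons were epithelial-like (67 and 4 cells), macrophage-like (4 and 9 cells) and unnamed (states 12 and 13). In what follows, "states" without further words are the 11 that were compared. A level is the mean over the cells of a state of UMIs per 10000 UMIs of the cell. Levels are not divided by transcript length, because a 3' library tags the end of a molecule, and levels of different genes are not ranked against each other.

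The pluripotent-like cells were the deepest, with a median of 28768 and 26127.5 UMIs per cell in libraries 1 and 2, against 15625 and 14292 over all cells. Totals were 54145377 and 64654306 UMIs, the range over single cells was 4753 to 60990 UMIs, and 12 cell barcodes occurred in both libraries. Depth therefore differed with state, and shares of cells are compared further on after every cell was brought to the same depth.

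The start regions of *Dnmt1* and *Uhrf1* are shown first, because these were the only 2 of the 10 genes whose promoter windows held the E2F motif. E2F factors are transcription factors that act on genes of the replication phase of the cell cycle. The motif was searched on both strands as TTTGGCGC, TTTCCCGC, TTTCGCGC or TTTGCCGC in windows from 250 bases before to 50 bases after each RefSeq gene start (GRCm38.p6). It was present in 744 of 32851 windows of that length (2.26%), and in 2 of the 17 windows of the 10 genes. Capitals mark its letters, and all sequences are given 5' to 3' on the strand of the gene. Of 3 *Dnmt1* windows, the one at chr9:20952574-20952873 on the minus strand held 2 matches and 33 CpG dinucleotides. Of 2 *Uhrf1* windows, the one at chr17:56304063-56304362 on the plus strand held 1 match and 33 CpG dinucleotides. Of 3 *Dnmt3l* windows, the one at chr10:78042037-78042336 on the plus strand is set beside them for its base composition. It held 6 CpG dinucleotides, and the other *Dnmt3l* windows held 4 and 3, where the median of all windows was 7.
Dnmt1: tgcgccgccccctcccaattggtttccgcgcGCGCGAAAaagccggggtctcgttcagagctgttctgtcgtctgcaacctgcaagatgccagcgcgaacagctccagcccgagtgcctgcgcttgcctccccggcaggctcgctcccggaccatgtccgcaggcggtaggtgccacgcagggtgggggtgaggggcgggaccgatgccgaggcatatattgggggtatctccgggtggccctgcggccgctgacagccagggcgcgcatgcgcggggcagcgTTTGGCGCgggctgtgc
Uhrf1: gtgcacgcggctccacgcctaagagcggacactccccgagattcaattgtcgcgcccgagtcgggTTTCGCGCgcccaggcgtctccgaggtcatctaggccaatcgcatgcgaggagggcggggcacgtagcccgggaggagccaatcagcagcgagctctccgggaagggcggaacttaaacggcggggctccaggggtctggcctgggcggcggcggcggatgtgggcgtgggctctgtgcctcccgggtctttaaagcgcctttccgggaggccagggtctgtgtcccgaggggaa
Dnmt3l: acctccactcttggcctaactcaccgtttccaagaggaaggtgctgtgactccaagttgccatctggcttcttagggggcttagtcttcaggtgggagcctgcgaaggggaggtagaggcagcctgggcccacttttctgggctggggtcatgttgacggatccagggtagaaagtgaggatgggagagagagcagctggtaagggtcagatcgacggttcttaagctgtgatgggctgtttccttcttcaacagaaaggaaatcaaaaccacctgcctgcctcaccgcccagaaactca
The *Dnmt1* and *Uhrf1* windows shown lay above the 90th percentile of all windows for CpG dinucleotides, which was 31. The other *Dnmt1* windows held 2 and 12, and the other *Uhrf1* window 12. High CpG counts were not particular to the windows with the motif. The *Tet2* window held 57, and the *Dnmt3a* windows held 46, 47 and 18. A match is a string of letters and not a measured binding site, and the start used in these cells was not measured by a 3' assay.

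*Dnmt1* and *Uhrf1*, the maintenance genes, were high in the compared states with raised S-phase or mitotic markers (states 3, 6, 7 and 10). They were low in the other compared states. *Dnmt1* (chr9:20907209-20959888, minus strand) was highest in state 6, at 1.33 UMIs per 10000 in library 1 and 1.07 in library 2, followed by state 10 at 0.974 and 1.03. The mitotic-like state had 0.718 and 0.692, and the pluripotent-like state 0.742 and 0.607. The values of these last 2 states overlapped, so their order does not exceed the spread between libraries. In the 7 non-cycling states *Dnmt1* lay between 0.0847 and 0.226 over both libraries. No non-cycling profile reached the lowest of the cycling and pluripotent-like profiles. The epithelial-like cells, which were not compared, had 5 of 19 mitotic markers raised. Their *Dnmt1* level was 0.710 (113 UMIs in 67 cells) and 0.593 (6 UMIs in 4 cells). Also not compared, state 13 had 0.608 in library 1 (8 UMIs in 16 cells) and state 12 had 0.0683 in library 2 (3 UMIs in 41 cells). The macrophage-like cells had 0.532 and 0.413, from 2 and 3 UMIs.

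*Uhrf1* (chr17:56303321-56323486, plus strand), which reads hemimethylated CpG sites, had another order. It was highest in the pluripotent-like state, at 1.16 and 1.00, followed by state 6 (0.887 and 0.872), state 10 (0.787 and 0.725) and the mitotic-like state (0.541 and 0.599). None of these 4 pairs of values overlapped. The 7 non-cycling states had between 0.0328 and 0.130. Among the compared states, *Uhrf1* thus stood highest in a state where *Dnmt1* was below both states 6 and 10. The epithelial-like cells, which were not compared, had *Uhrf1* at 0.483 (80 UMIs in 67 cells) and, above the pluripotent-like state, 1.34 (13 UMIs in 4 cells). State 13 had 0.315 in library 1 (5 UMIs in 16 cells), and state 12 and the macrophage-like cells had no UMI.

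**Figure D1:**
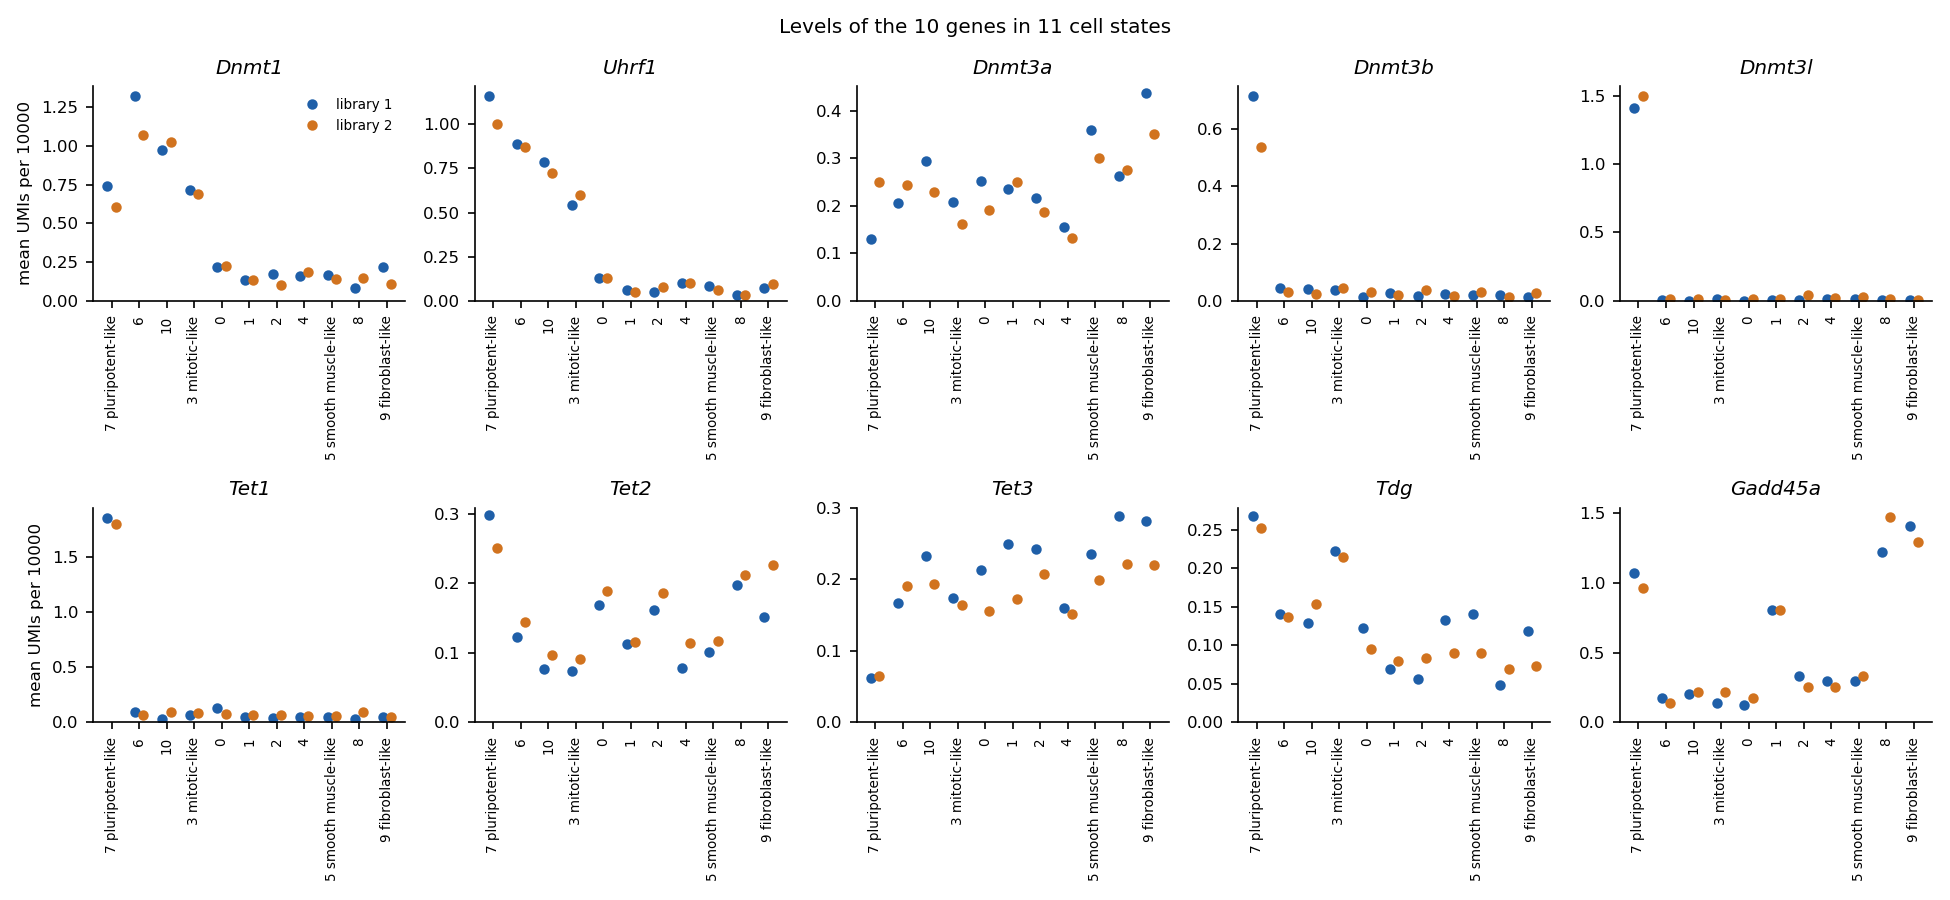
Mean UMIs per 10000 (vertical axes, each from 0) of the 10 genes in the 11 cell states (horizontal axes, by state number and name), with 1 blue point for library 1 and 1 orange point for library 2. Among these 11 states, *Dnmt3b*, *Dnmt3l* and *Tet1* stand out in the pluripotent-like state alone, *Dnmt1* and *Uhrf1* in the 4 states at the left of each panel, and *Tet3* is lowest in the pluripotent-like state.

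To compare the states, limma was fitted to log2(level + 0.1) of the 22 profiles with terms for state and library, and p-values were adjusted by Benjamini and Hochberg over all 11104 genes. The states were drawn from the same cells. The adjusted p-values therefore describe how well 2 libraries repeat a difference between states already chosen, and the spread between the libraries may be technical or may come from the mouse systems. Against the mean of the non-cycling states, states 6 and 10 together were higher in *Dnmt1* by 2.24 ± 0.09 (log2 fold change ± SE, limma adjusted p = 2.29e-15) and in *Uhrf1* by 2.39 ± 0.07. The mitotic-like state was higher than the same background by 1.67 ± 0.12 for *Dnmt1* and by 1.94 ± 0.09 for *Uhrf1*. Both libraries showed the direction in all 4 cases. With the pseudocount these values understate the change of low genes.

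Set directly against states 6 and 10, the pluripotent-like state was lower in *Dnmt1* by a log2 fold change of -0.63 ± 0.14 (limma adjusted p = 0.000437) and higher in *Uhrf1* by 0.37 ± 0.10 (limma adjusted p = 0.0028). Library 1 alone gave -0.55 and library 2 alone -0.70 for *Dnmt1*, and 0.43 and 0.30 for *Uhrf1*. The 2 genes therefore moved in opposite directions between these states in both libraries. The *Uhrf1* difference was smaller, at 0.27 with an adjusted p of 0.0527, with state 6 alone as the replicating state, and 0.24 with an adjusted p of 0.109 when the genes of the pathway were allowed in the clustering. The summed level of the 20 S-phase markers was 12.7 and 11.96 in the pluripotent-like state and 10.5 and 10.5 in the mitotic-like state. It was 14.6 to 16.4 in states 6 and 10 and 1.60 to 3.42 in the non-cycling states. The part of cell cycle composition in these differences was not tested.

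**Figure D2:**
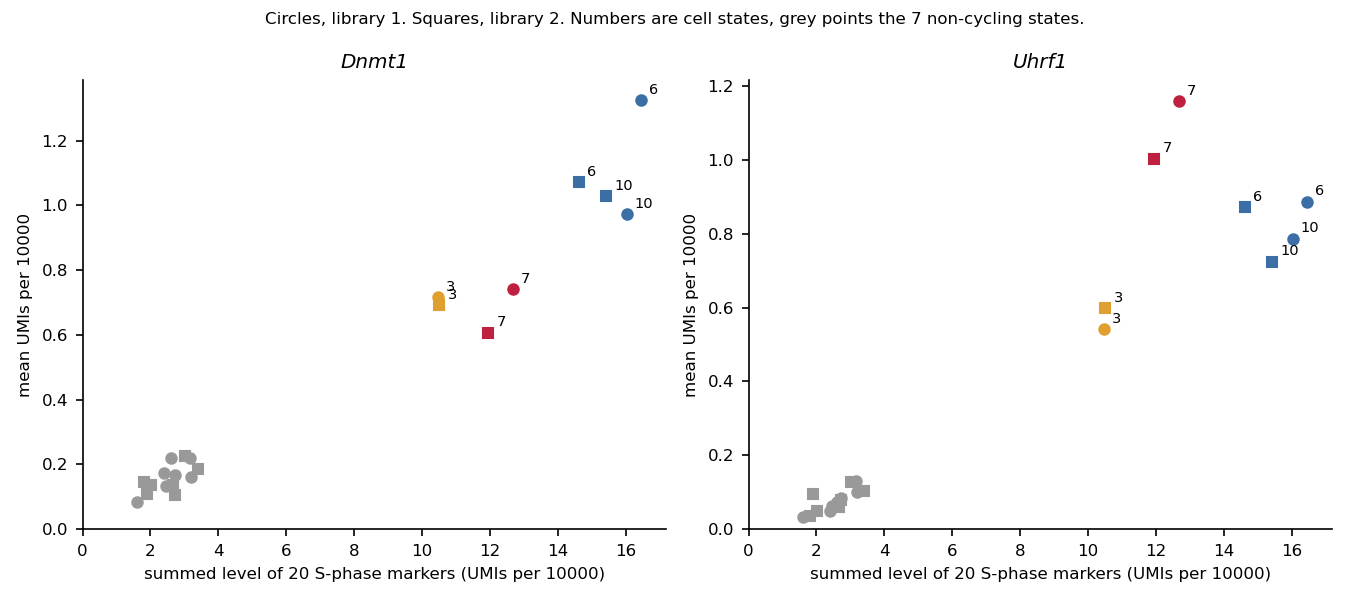
Mean UMIs per 10000 of *Dnmt1* (left) and *Uhrf1* (right) against the summed level of 20 S-phase markers in UMIs per 10000, for the 22 profiles, with circles for library 1 and squares for library 2. The pluripotent-like state 7 (red) had a *Dnmt1* level near that of the mitotic-like state 3 (orange) and below states 6 and 10 (blue), whereas its *Uhrf1* level was above all others, and the non-cycling states (grey) sat low in both panels.

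The *de novo* genes separated into 2 that, among the compared states, were nearly restricted to the pluripotent-like one and 1 that was not. *Dnmt3l* (chr10:78041947-78063622, plus strand), the cofactor, had 1.41 and 1.50 UMIs per 10000 in the pluripotent-like state. In the 10 other states it lay between 0 and 0.0401. The 0 was state 0 of library 1, where 3 UMIs would have been the limit that a count of 0 allows. Averaged over the 10 other states, its level was 0.41% and 1.16% of that in the pluripotent-like state. Over the 12 pluripotency markers the same percentage ran from 0.298 to 26.5, so the little *Dnmt3l* seen elsewhere was in the range of genes that marked the pluripotent-like state. Whether it was free RNA or transcription in those cells was not tested.

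*Dnmt3b* (chr2:153649450-153687730, plus strand), a catalytic *de novo* enzyme, had 0.715 and 0.536 in the pluripotent-like state and between 0.0117 and 0.0448 in the 10 other compared states. Its level there was 3.56% and 5.19% of that in the pluripotent-like state. Outside the comparisons, the epithelial-like cells had a *Dnmt3b* level of 0.108 in library 1 (18 UMIs in 67 cells) and 0.417 in library 2 (4 UMIs in 4 cells). Neither gene had overlapping values between the pluripotent-like state and any other compared state. The log2 fold change of *Dnmt3b* against the mean of the other states was 2.51 ± 0.09, and 2.41 ± 0.11 against states 6 and 10. For *Dnmt3l* the values were 3.80 ± 0.07 and 3.83 ± 0.09, given as a description with no p, because only its high level in the pluripotent-like cells brought it into the test. In states 6 and 10 and in the mitotic-like state, *Dnmt3b* and *Dnmt3l* did not pass the test against the non-cycling background, with log2 fold changes between -0.04 and 0.20. In some alternative settings, given at the end, *Dnmt3b* did pass.

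*Dnmt3a* (chr12:3806007-3914443, plus strand), the other catalytic *de novo* enzyme, was present in all states. It was highest in the fibroblast-like state 9, at 0.437 and 0.352, and in the smooth muscle-like state 5, at 0.360 and 0.300. By the mean of the 2 libraries it was lowest in state 4, at 0.156 and 0.132, although library 1 alone was lowest in the pluripotent-like state. In the pluripotent-like state the libraries disagreed, with 0.130 in library 1 and 0.250 in library 2. The log2 fold change against the mean of the other states was -0.26 ± 0.12, just past the threshold with a limma adjusted p of 0.045. Library 1 alone gave -0.63 and library 2 alone 0.10, and with every cell thinned to 3000 UMIs the value was 0.016. No direction is therefore given for *Dnmt3a* in the pluripotent-like state. The mitotic-like state gave -0.30 ± 0.12 against the non-cycling states, with a limma adjusted p of 0.044, and this call was also lost in most alternatives.

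The make-up of the *Dnmt3* family differed with state. In the pluripotent-like cells *Dnmt3l* took 62.7% of the *Dnmt3* UMIs in library 1 (581 of 926) and 64.0% in library 2 (1500 of 2345). *Dnmt3b* took 31.2% and 25.0%, and *Dnmt3a* 6.05% and 11.04%. In the 10 other states *Dnmt3a* took 87.9% (1186 of 1349) and 83.5% (1127 of 1350). The exact binomial 95% interval for the *Dnmt3a* share in pluripotent-like cells ended at 7.78% and 12.4%, and in the other states it began at 86.1% and 81.4%. Intervals cover counting error only. The efficiency of 3' capture of each gene is not known, so the change of these shares between states is of more use than their size.

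The TET genes differed with state as well, with *Tet1* and *Tet3* at opposite ends. *Tet1* (chr10:62804570-62908996, minus strand) had 1.86 and 1.80 UMIs per 10000 in the pluripotent-like state and between 0.0300 and 0.134 in the 10 other compared states, of which state 0 of library 1 was the highest. The epithelial-like cells, outside the comparisons, had *Tet1* at 0.126 (18 UMIs in 67 cells) and 0.518 (5 UMIs in 4 cells). *Tet2* (chr3:133463679-133545139, minus strand), a TET enzyme without the CXXC domain of its relatives, had 0.298 and 0.251 in the pluripotent-like state. State 8 followed at 0.197 and 0.212, and state 9 at 0.152 and 0.227. The values of states 8 and 9 overlapped each other but not those of the pluripotent-like state. The few macrophage-like cells, outside the comparisons, had *Tet2* at 0.710 and 0.612, from 3 and 5 UMIs.

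*Tet3* (chr6:83362373-83459084, minus strand), the TET enzyme known from the zygote and from differentiated cells, went the other way. It had 0.0618 and 0.0643 in the pluripotent-like state and between 0.152 and 0.289 in the 10 other states, with no overlap. States 8 and 9 were the highest, at 0.289 and 0.221 and at 0.282 and 0.220, and did not differ beyond their spread. Against the mean of the other states, *Tet1* was higher by 3.56 ± 0.12 (log2 fold change ± SE, limma adjusted p = 6.14e-17) and *Tet2* by 0.69 ± 0.09. *Tet3* was lower, with a log2 fold change of -0.90 ± 0.09 (limma adjusted p = 4.05e-09). Against states 6 and 10 the 3 values were 3.53 ± 0.15, 0.84 ± 0.10 and -0.85 ± 0.10.

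Among the cells that were not pluripotent, *Tet2* was lower in cycling than in non-cycling states, with -0.25 ± 0.07 in states 6 and 10 and -0.44 ± 0.09 in the mitotic-like state. Neither call held when cells were thinned to 3000 UMIs (-0.24 and -0.40, adjusted p = 0.273 and 0.161), and the first was -0.01 when the genes of the pathway were allowed in the clustering and -0.09 with state 6 alone. *Tet1* and *Tet3* did not pass the test in either comparison. As shares of all *Tet* UMIs, *Tet1* took 84.3% (791 of 938) and 86.1% (1870 of 2172) in pluripotent-like cells, and *Tet3* 2.88% and 2.99%. In the 10 other states *Tet1* took 15.5% and 18.3%, *Tet2* 30.3% and 36.1%, and *Tet3* 54.2% and 45.6%.

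**Figure D3:**
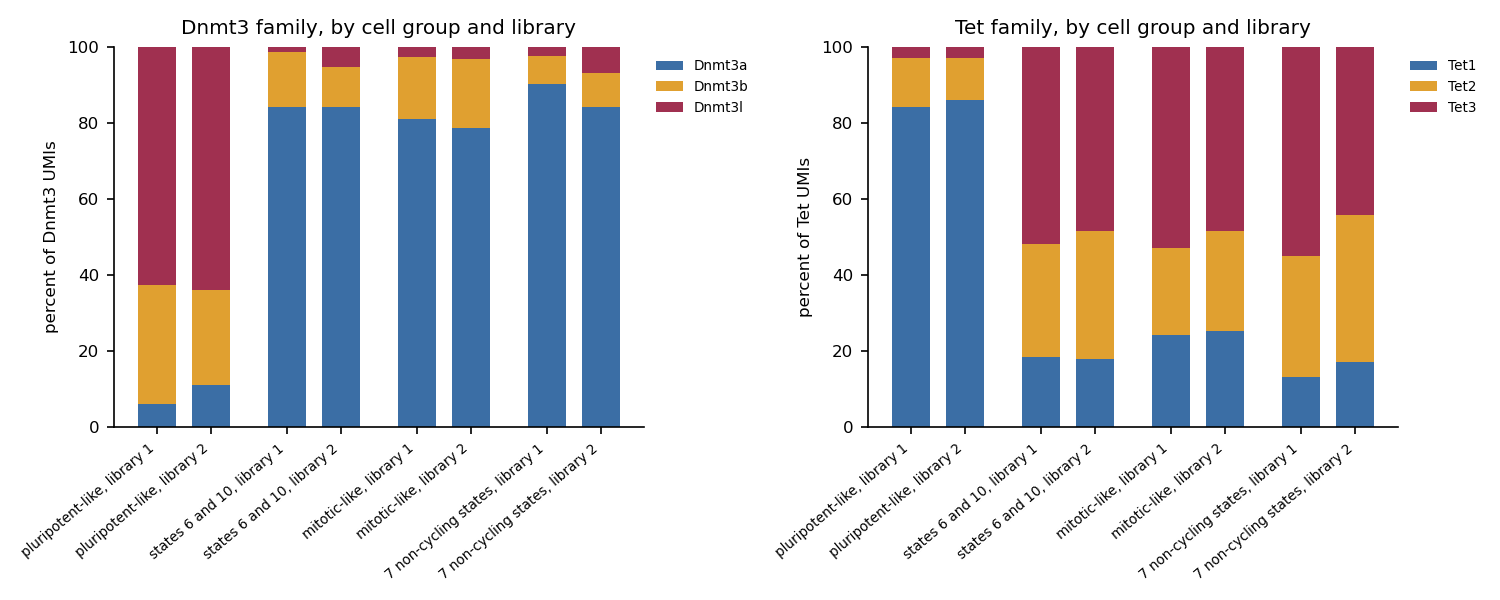
Percent of the UMIs of the *Dnmt3* family (left) and of the *Tet* family (right) taken by each member (stacked colours), in 4 groups of cell states and in library 1 and library 2. *Dnmt3a* held 78.6% or more in every group but the pluripotent-like one, where *Dnmt3l* held 62.7% and 64.0%, and *Tet1* held 84.3% and 86.1% in the pluripotent-like group against 25.3% or less in the others.

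*Tdg* (chr10:82629828-82650799, plus strand), the glycosylase that acts after TET oxidation, was highest among the compared states in the pluripotent-like one, at 0.268 and 0.252. The mitotic-like state came next at 0.222 and 0.214, then states 10 (0.129 and 0.153) and 6 (0.140 and 0.136), which overlapped. The non-cycling states lay between 0.0487 and 0.141 and overlapped states 6 and 10. Outside the comparisons, the 67 epithelial-like cells of library 1 had a *Tdg* level of 0.298 (51 UMIs), above the pluripotent-like state, and the 16 cells of state 13 in that library 0.452 (6 UMIs). The pluripotent-like state was higher than the mean of the others by 0.79 ± 0.10, with the same value in both libraries to 2 decimals. The mitotic-like state was higher than the non-cycling states by 0.75 ± 0.10, and states 6 and 10 by 0.34 ± 0.08, a call that was lost when every cell was thinned to 3000 UMIs (0.22, adjusted p = 0.329). *Tdg* has transcripts in GENCODE M21 with over 98% identity, namely *Tdg-ps*, *Gm5597* and *Gm9855*, none of which was a row of the table. Reads shared with them may have been lost or gained in counting, so its level is uncertain.

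*Gadd45a* (chr6:67035096-67037457, minus strand), a stress-induced gene that has been linked to repair-based demethylation, was not marked by pluripotency but by a set of states. It was highest in the fibroblast-like state 9 (1.40 and 1.29) and in state 8 (1.22 and 1.47), which overlapped. The pluripotent-like state followed at 1.07 and 0.961, and then state 1 at 0.807 and 0.802. All other compared states were at 0.335 or lower. Outside the comparisons, state 12 had 0.854 in library 2 (42 UMIs in 41 cells) and state 13 had 0.474 in library 1 (5 UMIs in 16 cells). The pluripotent-like state was therefore higher than the mean of the others by 1.23 ± 0.10 and higher than states 6 and 10 by 1.99 ± 0.12, but not the highest state. States 6 and 10 were lower than the non-cycling states, with a log2 fold change of -1.09 ± 0.08 (limma adjusted p = 6.79e-11), and so was the mitotic-like state, with -1.14 ± 0.10. Low *Gadd45a* was not confined to these 3 states, as state 0 had 0.122 and 0.171.

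Without *Dnmt3l* the count is over 9 genes. The pluripotent-like state was called higher than the mean of the other states for 7 of the 9 and lower for *Tet3*, while *Dnmt3a*, also called lower, went opposite ways in the 2 libraries. Over all 11104 genes, 31.5% were called higher and 44.7% lower, and the median log2 fold change was -0.11, against 0.99 over the 9 genes. Without the genes that, like *Dnmt3l*, passed the filter only through the pluripotent-like cells, 10938 remained. Of these, 30.5% were called higher and 45.4% lower, with a median of -0.12. In the 3 comparisons that follow, the shares over the 10938 were 26.2% and 24.9%, 26.5% and 21.4%, and 25.7% and 43.4%. States 6 and 10 were higher for 3 (*Dnmt1*, *Uhrf1*, *Tdg*) and lower for 2 (*Tet2*, *Gadd45a*), where 25.9% and 24.5% of all genes were called. The mitotic-like state was higher for the same 3 and was called lower for *Tet2*, *Gadd45a* and *Dnmt3a*, where 26.2% and 21.1% of all genes were called. Against states 6 and 10 the pluripotent-like state was higher for 6 and lower for *Dnmt1* and *Tet3*, where 26.7% and 42.7% of all genes were called. Calls were common among all genes, so the counts alone say little. Against the mean of the other states, the largest log2 fold changes of the 9 genes were those of *Tet1* (3.56), *Dnmt3b* (2.51) and *Uhrf1* (2.08). *Dnmt3b* was not above *Uhrf1* in every alternative, as their lowest values over the alternatives were 0.661 and 0.745. The comparisons share profiles and are not independent of each other.

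**Figure D4:**
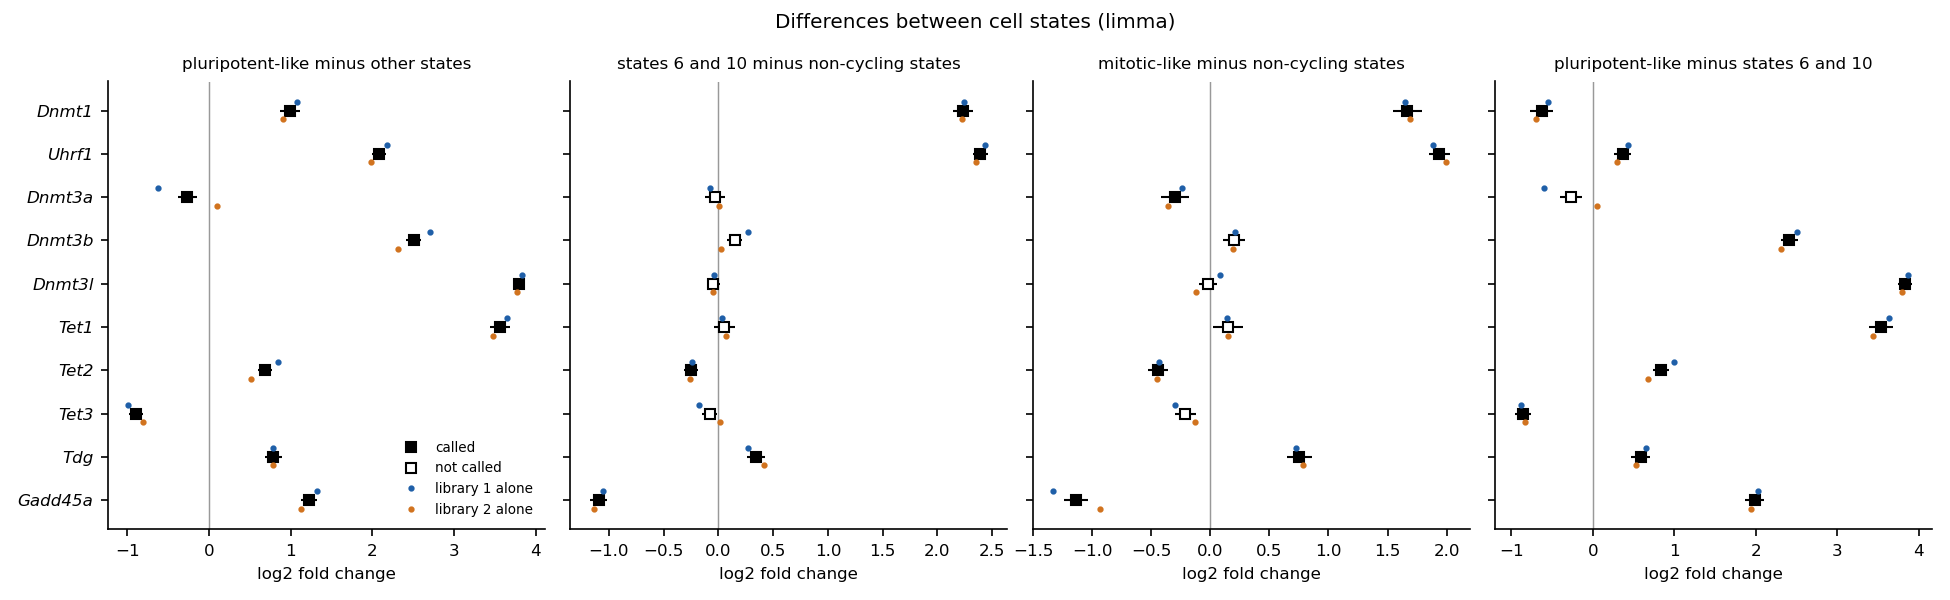
Log2 fold change of the 10 genes in 4 comparisons between cell states, as black squares with 1 SE on each side (filled where the limma adjusted p was under 0.05) and as a blue and an orange point for library 1 and library 2 alone. *Dnmt3l* (3.80), *Tet1* (3.56) and *Dnmt3b* (2.51) were furthest to the right in the first comparison, and the *Dnmt3a* points of the 2 libraries lay on opposite sides of 0 (-0.63 and 0.10). The *Dnmt3l* values that involve the pluripotent-like state are a description.

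To ask whether the deeper sequencing of pluripotent-like cells could give these differences, every cell was reduced by random draws to 3000 UMIs, and cells that kept at least 1 UMI of a gene were counted. Among pluripotent-like cells *Tet1* was found in 45.2% (exact binomial 95% interval 37.0 to 53.6) in library 1 and 43.1% (38.1 to 48.2) in library 2, against 1.89% and 2.19% elsewhere. *Dnmt3l* was found in 32.9% and 33.6% against 0.101% and 0.568%. *Uhrf1* was found in 32.2% and 26.4% against 6.24% and 6.02%. Without thinning, the same shares were 97.3% and 92.8% for *Tet1*, 89.7% and 86.9% for *Dnmt3l*, and 91.1% and 81.8% for *Uhrf1*.

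At equal depth the intervals of pluripotent-like and other cells were apart in both libraries for 6 genes: *Dnmt1*, *Uhrf1*, *Dnmt3b*, *Dnmt3l*, *Tet1* and *Gadd45a*. The other cells pool all remaining states. *Dnmt1* was found in 18.5% and 14.1% of pluripotent-like cells, against 32.8% and 29.1% in state 6 and 32.1% and 29.1% in state 10. *Gadd45a* was found in 23.3% and 22.6%, against 26.3% and 28.8% in state 8. For the rest of the 6, no compared state had a share above the pluripotent-like one. The intervals were apart in 1 library for *Tet3* and in 1 library for *Tdg*. For *Tet3*, library 2 had 1.28% (0.418 to 2.97) of pluripotent-like cells against 5.48% of the others. With every cell at 4000 UMIs *Tet3* was apart in both libraries as well (2.74% and 2.05% of pluripotent-like cells against 8.44% and 6.58%), which made 7 genes, and *Tet2* was apart in 1. At 3000 UMIs the intervals of *Tet2* overlapped in both libraries, at 7.53% and 7.18% against 3.64% and 4.11%. *Dnmt3a* had 6.85% and 5.90% against 6.58% and 6.04%, a mean difference of 0.0607 percentage points ± 0.293 (SD, n = 2). No test was made on these shares, since an exact sign-flip test over 2 libraries cannot give a p below 0.5. The intervals take cells as the unit and cover counting error only, so intervals that are apart are not a test between states. A single UMI in other cells may also come from free RNA.

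**Figure D5:**
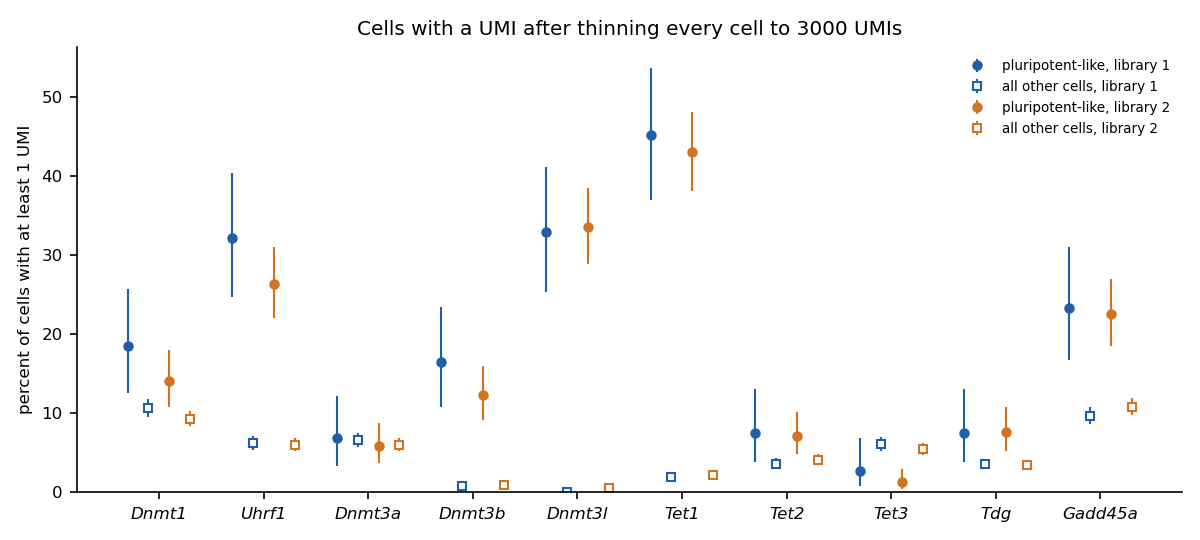
Percent of cells with at least 1 UMI of each gene after every cell was thinned to 3000 UMIs, for pluripotent-like cells (filled) and all other cells (open) of library 1 (blue) and library 2 (orange), with exact binomial 95% intervals as bars. The filled points are far above the open ones for *Tet1*, *Dnmt3l*, *Uhrf1* and *Dnmt3b*, lie on them for *Dnmt3a*, and are below them for *Tet3*.

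As a description, the genes with a UMI were counted per cell. The count includes *Dnmt3l*, which was found mostly in pluripotent-like cells and so adds mainly to their count. A pluripotent-like cell had UMIs of a median of 7 (library 1) and 6 (library 2) of the 10 genes. The median was 3 in states 6 and 10, 3 in the mitotic-like state and 2 over the cells of the 10 other states, in either library. At 3000 UMIs per cell the medians were 2 and 2 in pluripotent-like cells. They were 1 and 1 in states 6 and 10 and 0 and 1 in the mitotic-like state. Over the 10 other states they were 0 and 0. At that depth no UMI of any of the 10 was found in 12.3% and 14.9% of the pluripotent-like cells. The shares were 41.1% and 43.5% in states 6 and 10 and 52.4% and 49.5% in the mitotic-like state. Over the 10 other states they were 60.8% and 60.0%.

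The wider pathway was described with 46 further genes, of which 43 passed the filter, *Dppa3* only through the pluripotent-like cells. Without it, the pluripotent-like state was higher than the mean of the other states for 24 of 42 and lower for 12, where 31.5% and 44.7% of all genes were called. The median log2 fold change of the 42 was 0.27, against -0.11 over all genes. The 12 partners and regulators of the enzymes so counted were 9 higher and 3 lower, where most of all genes were also called. *Dppa3*, whose product binds UHRF1 and keeps it from chromatin, had 0.943 and 0.779 in the pluripotent-like state and at most 0.00963 in any other compared state, which is a description, as its mean over the remaining cells was 0.00374. *Hells*, a chromatin remodeller needed for normal DNA methylation, had 2.87 and 2.84 against 1.09 and 0.983 in states 6 and 10 and 0.136 and 0.135 in the non-cycling states. *Zfp57* and *Trim28*, which act together to keep methylation at imprinted loci, were higher by 2.41 ± 0.09 and 2.29 ± 0.09, and *Kdm2b*, a CXXC protein that binds CpG islands, by 1.54 ± 0.11.

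*Uhrf2*, the paralog of *Uhrf1*, went the opposite way to *Uhrf1* in the pluripotent-like state, but the same way in states 6 and 10 against the non-cycling states. It had 0.170 and 0.214 in the pluripotent-like state, 0.829 and 0.871 in states 6 and 10, and 0.490 and 0.517 in the non-cycling states. Its log2 fold change between the pluripotent-like state and states 6 and 10 was -1.70 ± 0.10, and states 6 and 10 were higher than the non-cycling states by 0.67 ± 0.06. The pluripotent-like values overlapped those of none of the other states.

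Of the 11 repair partners, 7 were higher and 1 lower in the pluripotent-like state than in the mean of the others (31.5% and 44.7% over all genes). *Ung*, a uracil glycosylase, had 2.12 and 2.31 against 0.477 and 0.434 in states 6 and 10 and 0.114 and 0.109 in the non-cycling states. *Parp1*, a sensor of strand breaks, was higher by 2.06 ± 0.07. *Neil3*, a glycosylase of replicating cells, marked states 6 and 10 instead, at 0.661 and 0.699, against 0.0488 and 0.0766 in the pluripotent-like state, a log2 fold change of -2.26 ± 0.09 between them.

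Of the 8 readers of methylated DNA, 2 were higher and 4 lower in the pluripotent-like state than in the mean of the others, which is near the share over all genes (31.5% and 44.7%). In the Gadd45 family, *Gadd45g* was lower by a log2 fold change of -1.78 ± 0.12, with 0.160 and 0.159 against 0.835 and 0.842 over the other states, and *Gadd45b* was lower by -0.46 ± 0.10, while *Gadd45a* was higher. Of the 6 genes of methyl donor and cofactor supply, 4 were higher and 1 lower, and of the 2 tested deaminases 1 was higher and 1 lower, in the same comparison. The higher one was *Apobec3*, known for restricting retroviruses, at 0.936 and 1.08 against 0.363 and 0.318.

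In cycling cells that were not pluripotent, the same 42 genes gave 19 higher and 10 lower in states 6 and 10, where 25.9% and 24.5% of all genes were called, so the lower count was at the share of all genes. They gave 17 higher and 4 lower in the mitotic-like state, where 26.2% and 21.1% of all genes were called. *Neil3* (2.81 ± 0.06 and 1.99 ± 0.08), *Hells* (2.29 ± 0.07 and 1.94 ± 0.09), and *Pcna*, the replication clamp (2.12 ± 0.06 and 1.40 ± 0.08), had the largest log2 fold changes of the list in both comparisons. *Ung* (1.42 ± 0.09) and *Cdca7*, a partner of *Hells* (1.28 ± 0.08), followed in states 6 and 10, and *Cdca7* (1.37 ± 0.10) in the mitotic-like state. *Ogt*, a glycosyltransferase that binds TET proteins, was lower in both, by log2 fold changes of -0.73 ± 0.06 and -1.10 ± 0.08. *Zbtb4*, a reader, was lower by -0.84 ± 0.09 in the mitotic-like state. Against states 6 and 10 the pluripotent-like state was higher for 18 and lower for 10 of the 42, where 26.7% and 42.7% of all genes were called.

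Over the 22 profiles the genes whose log2 level was most like that of each of the 10 were found by Pearson correlation, as a description. The profiles share 2 libraries, and large differences between a few states set such values. *Dnmt1* was most like *Dek* (r = 0.986), *Rmi2* (0.984) and *Top2a* (0.983). *Uhrf1* was most like *Gmnn* (0.993), *Mcm5* (0.990) and *Mcm10* (0.987). *Dnmt3l* was most like *Dppa4* (0.997), *Trap1a* (0.997) and *Tcl1* (0.996), *Dnmt3b* like *Tcf15* (0.992), *Rbmxl2* (0.990) and *Mylpf* (0.990), and *Tet1* like *Hsd17b14* (0.990), *Sox2* (0.988) and *Nanog* (0.988). *Tdg* was most like *Mrpl57* (0.933), *Banf1* (0.926) and *Coq7* (0.924), and *Tet3* like *Notch2* (0.942), *Tsc22d4* (0.938) and *Kmt2e* (0.937). The nearest genes were less alike for *Dnmt3a* (*Pik3r2*, 0.899, *Atrn*, 0.870, and *Gas1*, 0.855), *Gadd45a* (*Inhbb*, 0.892, *Hmox1*, 0.879, and *Klf9*, 0.877) and *Tet2* (*Pdk1*, 0.827, *Prelid2*, 0.811, and *E030030I06Rik*, 0.800). Among the 10 genes themselves, *Dnmt3b*, *Dnmt3l* and *Tet1* had r from 0.969 to 0.983 with each other and -0.840 to -0.862 with *Tet3*, and *Dnmt1* with *Uhrf1* had 0.955.

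Some of the 10 genes overlap others on the opposite strand, and whether counting used the strand is not stated in the sources used here. *Dnmt3l* overlaps *Aire*, a gene known from the thymus, by 1664 bases. *Aire* had 0.575 and 0.594 in the pluripotent-like state and 0.00377 and 0.00805 over the others. Each was counted as a gene of its own, and whether any reads of *Aire* were counted for *Dnmt3l* was not tested. *Tdg* overlaps *Glt8d2* by 367 bases, and *Glt8d2* had no UMI in pluripotent-like cells and 53 in the others. The antisense genes *Dnmt3aos* and *Dnmt3bos* had 7 and 3 UMIs over the same 11 states. *Uhrf1* has a transcript relative with 98.3% identity, *Gm5648*, that was not a row of the table.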

How the data were processed

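Droplet single-cell 3' RNA-seq was analysed from 2 libraries of 1 group (day 16 of STEMCCA reprogramming). According to the study's methods, read counts came from Cell Ranger (version 2.1.1, mm10) and were processed in Seurat. The authors kept cells by detected genes (over 1500, under 6000) and by mitochondrial RNA (under 9%), and 0 cells of the table lay outside these limits. Values were deposited by the authors as natural logs, ln(1 + x), where x is a gene's UMIs per 10000 of the cell. They were brought back to linear values and to whole counts, which are taken as UMIs here. Doublets were neither called nor removed, and the sources used here do not say whether the authors removed them. No column was left unassigned.

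Cells of both libraries were clustered together (scanpy version 1.11.5, scikit-learn version 1.9.0, leidenalg version 0.10.2). The 2000 most variable genes of each library were combined to 2594, after 662 genes were left out (the 10 genes, the 46 pathway genes, genes on X or Y, the 4 transgene factors, *Zfp42* and *Pecam1*), with 30 principal components, 15 neighbours and resolution 1. States were named by the marker class most of whose genes were raised (log2 of at least 1, at least 3 markers and 50% of those in the table), from 110 markers of 11 classes, unless its 10 leading genes held more markers of another class. No state met this for S phase, so states 6 and 10, whose largest share was of S-phase markers, were used by number. That choice was made after the states were seen.

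A profile was the mean of linear values over the cells of a state in a library. limma (version 3.58.1, R version 4.3.3) was fitted with an intensity trend to log2(mean + 0.1) of 22 profiles, with state and library as terms and a threshold of 0.05 on adjusted p. The fit was also run on simulated data, built from these profiles with independent noise, and no result given here rests on that run. Some genes reached the filter of 0.02 only through the pluripotent-like cells (*Dnmt3l* and *Dppa3* among those described). They were left out of counts of called genes over a list, a choice made after seeing the data. *Dnmt3l* stayed in the shares of cells and in the genes counted per cell. Shares of cells have exact (Clopper-Pearson) 95% intervals. Coordinates are from GENCODE M21 on GRCm38, the assembly that mm10 denotes, and promoter windows from RefSeq GRCm38.p6. Near-identical transcripts were found with BLAST (version 2.17.0).

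The 10 genes, the pathway list and the markers were chosen with earlier results of these data known. From the pathway list the text names, per comparison, up to 8 called genes with the largest absolute log2 fold change that lay the same way in both libraries. *Gadd45b* and the genes that overlap others were added after their values were seen. For each of the 10 genes the 3 genes with the highest Pearson correlation are named. Alternatives covered the pseudocount, the filter, the variance trend, summed UMIs, thinning to 3000 UMIs, clustering settings, a minimum of 100 cells, the library term and each library alone. Depth per library and per cell is given with the results. Tables and plots were made with pandas (version 2.3.3), matplotlib (version 3.10.9), scipy (version 1.17.1) and numpy (version 2.4.6) under Python (version 3.11.15).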

Additional observations from a re-analysis of the deposited data

How the results depend on the processing

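Each difference of the 10 genes was computed again under the alternatives. The calls for *Dnmt1*, *Dnmt3b*, *Tet1*, *Tet2*, *Tet3*, *Tdg* and *Gadd45a* in the pluripotent-like state, and for *Uhrf1* against the mean of the other states, kept their side of the threshold in every alternative that gave a value. *Dnmt3l* is not counted here, since it entered the test only through that state. *Dnmt3a* did not keep its call. Its log2 fold change against the mean of the other states was 0.016 with cells thinned to 3000 UMIs, and the libraries alone ranged from -0.63 to 0.10. It was also no longer called with a pseudocount of 1, without a filter, with summed UMIs, at resolution 0.5 or 2, and without the library as a replicate block (adjusted p = 0.0611). The number of the 10 genes called in states 6 and 10 was 5, and 3 with thinned cells, where *Tet2* and *Tdg* were lost, and there 3128 genes were called of all, against 5604. The block changed no other call of the 10 genes but that of *Dnmt3a* in the mitotic-like state (adjusted p = 0.0646). *Dnmt3b* was called higher in states 6 and 10 with a pseudocount of 0.01 (0.513, limma adjusted p = 0.0400). At resolution 2, in the states with most S-phase markers, it was called higher (0.148, limma adjusted p = 0.0468) and *Dnmt3a* lower (-0.214, limma adjusted p = 0.0174). In the mitotic-like state *Tet2* was also lost with thinned cells and at resolution 2, and *Dnmt3b* and *Tet3* were called in 3 alternatives each. For shares at 3000 UMIs, 6 genes were apart in both libraries, at 4000 UMIs 7 with *Tet3*, and without thinning 9. *Dnmt3l*, which is left out of the counts of calls, was among these each time. Resolution 0.5 gave no state with most of its raised markers in S phase, so the comparisons with states 6 and 10 had no value there, and *Dnmt3b* was not tested with a filter at 0.1. A single library has no residual freedom and gave values only. The causes were not tested. UMI counts limit precision, with 27 UMIs of *Tet3* and 56 of *Dnmt3a* in the pluripotent-like cells of library 1.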

Other observations

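Within the pluripotent-like state, cells with a UMI of *Dppa3* (89 in library 1, 212 in library 2) were set beside cells without one (57 and 178), as values with no test. *Uhrf1* had 1.09 and 0.898 UMIs per 10000 in cells with *Dppa3* and 1.27 and 1.13 in cells without. *Dnmt1* had 0.747 and 0.528 with and 0.735 and 0.702 without, and *Dnmt3l* 1.50 and 1.55 with and 1.25 and 1.43 without. *Tet2* had 0.284 and 0.216 with and 0.320 and 0.294 without, *Dnmt3a* 0.137 and 0.286 with and 0.119 and 0.206 without, and *Gadd45a* 1.09 and 0.983 with and 1.06 and 0.935 without. Of the 10 genes, *Uhrf1* and *Tet2* were the lower in cells with *Dppa3* in both libraries, and *Dnmt3l*, *Dnmt3a* and *Gadd45a* the higher. With only 2 libraries a common direction is easily met without any difference, and its share over all genes was not computed. No difference is therefore read from these directions. The other 5, among them *Tet1* (1.73 and 1.82 with, 2.07 and 1.78 without), had no common direction. Cells with *Dppa3* were deeper, with a median of 29424 and 27517.5 UMIs against 27522 and 24097, and the part of depth was not tested.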
